A study of Mus musculus with 6 samples.

Results

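The MAP kinase phosphatases are the subfamily of dual-specificity phosphatases (DUSP) that remove the activating phosphates from MAP kinases. The subfamily holds 10 genes, Dusp1, Dusp2, Dusp4, Dusp5, Dusp6, Dusp7, Dusp8, Dusp9, Dusp10 and Dusp16, found by symbol among the 54532 genes of the table. RNA of muscle tissue was sequenced in 6 libraries, 3 of control mice (Mck-Cre-; Igf2f/f) and 3 of Igf2 cKO mice (Mck-Cre+; Igf2f/f). All were on a C57BL/6 background, all carried loxP sites on both Igf2 alleles, and the groups were littermates that differed in a Cre driven by the muscle creatine kinase promoter, which drives expression in striated muscle fibres rather than in the other cells of the tissue. The labels used here name neither the muscle nor the age or sex. The group was chosen by measured values of the same contrast, the differences between genotypes of Dusp8 and Dusp10, which have opposite signs. The differences between genotypes of all 10 genes are therefore given as a description, with no p-value, and the count of members called in the fit over all genes supports nothing about them.

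MAP kinases form 3-tier cascades in which a MAP kinase kinase kinase phosphorylates a MAP kinase kinase, and that in turn phosphorylates threonine and tyrosine of a MAP kinase. The phosphatases undo this last step. Dusp1, Dusp2, Dusp4 and Dusp5 encode nuclear, inducible enzymes, Dusp6, Dusp7 and Dusp9 cytoplasmic enzymes that prefer ERK, and Dusp8, Dusp10 and Dusp16 enzymes that prefer the stress kinases JNK and p38. Several are themselves transcribed in answer to the kinase that they switch off, so their RNA is part of a feedback loop. In mouse muscle, loss of Dusp10 (MKP-5) improves regeneration, and Dusp1 (MKP-1) restrains p38 signalling in fibres.

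Total counts lay between 16184371 and 17905203 per library. The targeted gene was near the lower end of detection, as the 3 controls held 60, 43 and 39 Igf2 counts and the Igf2 cKO libraries 33, 37 and 42. This count covers the whole gene, including parts outside the exon flanked by loxP sites, and therefore is no check on the genotype labels. Muscle fibre markers were abundant, at a summed level over 8 genes of 98492 to 118138 CPM (counts relative to library size, scaled by TMM) among controls and 79446 to 95483 CPM among Igf2 cKO libraries, and these ranges do not overlap. Taken singly, only Ckm and Myh4 of the 8 genes were apart between the groups. Myh1 and Myh2 had log2 fold changes above 0, at 0.34 and 0.26, and the other fibre genes lay below 0. Igf2 cKO replicate 2 held the lowest Myh4 and the highest Myh1, Myh2 and Myh7 levels. The part of this summed gap in the results below was not tested. Summed markers of endothelial cells, macrophages, lymphocytes, neutrophils, fibroblasts, smooth muscle and pericytes, adipocytes, Schwann cells and satellite cells were also taken. Only those of T and B lymphocytes were apart between the groups, at 1.24 to 2.01 CPM over 6 genes against 0.946 to 1.24 CPM in Igf2 cKO muscle, with unrounded values that do not overlap and none of the 6 genes above 20 counts. By edgeR, 0 marker genes of any of the 10 lists were called.

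The start regions of 3 members are shown because Dusp8 and Dusp10 differ in opposite directions and Dusp1 is the most abundant member. RefSeq (build GRCm38.p6) gave a window of 300 bases, 250 before and 50 after the start site, for 8 of the 10 genes. Capitals mark matches on either strand to the cyclic AMP response element TGACGTCA (CRE), the E-box CACGTG or the GC box GGGGCGGGG, 3 of the 5 motifs searched. The window of Dusp8 lies at chr7:142095235-142095534 (minus strand), that of Dusp1 at chr17:26508423-26508722 (minus strand) and that of Dusp10 at chr1:184034131-184034430 (plus strand).
Dusp8: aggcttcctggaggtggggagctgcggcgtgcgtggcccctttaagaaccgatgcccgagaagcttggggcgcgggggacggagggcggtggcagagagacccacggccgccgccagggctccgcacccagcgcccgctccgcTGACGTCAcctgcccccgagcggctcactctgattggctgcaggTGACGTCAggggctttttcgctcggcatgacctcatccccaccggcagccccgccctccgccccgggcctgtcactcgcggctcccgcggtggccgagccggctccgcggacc
Dusp1: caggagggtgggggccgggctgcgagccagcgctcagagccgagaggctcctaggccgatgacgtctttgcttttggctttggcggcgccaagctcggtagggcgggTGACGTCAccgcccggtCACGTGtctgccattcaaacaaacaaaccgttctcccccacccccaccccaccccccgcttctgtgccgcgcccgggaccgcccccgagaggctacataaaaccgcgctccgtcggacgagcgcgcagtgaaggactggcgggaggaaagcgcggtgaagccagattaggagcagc
Dusp10: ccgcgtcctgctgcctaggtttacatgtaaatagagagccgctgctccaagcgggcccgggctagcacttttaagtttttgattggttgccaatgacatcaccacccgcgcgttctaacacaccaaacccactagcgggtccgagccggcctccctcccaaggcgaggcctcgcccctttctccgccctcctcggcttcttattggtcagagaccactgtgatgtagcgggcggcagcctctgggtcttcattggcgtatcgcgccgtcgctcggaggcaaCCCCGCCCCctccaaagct

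The Dusp8 window held 2 CRE matches, starting 107 and 63 bases before the start site. The Dusp1 window held 1 CRE, 143 bases before the start, and an E-box 126 bases before it. The Dusp10 window held neither, and had 1 GC box from base 32 after the start. Among all 32851 windows of this length in the table, 1.79% held a CRE, 0.0396% held 2 or more, 7.15% held the E-box and 11.4% held the GC box. Of the other members with a window, Dusp2 had an E-box and a GC box, Dusp5 had 1 GC box, Dusp16 had 3 GC boxes of which a pair overlap, and Dusp6 and Dusp7 had no match. The AP-1 motif TGACTCA (5.20% of all windows) and the palindromic glucocorticoid response element (0.00913%) matched in 0 of the 8 windows. All 8 windows were rich in CpG, with 19 (Dusp6) to 41 (Dusp7) CpG pairs, where the median of all windows was 7. The CRE, the E-box and the GC box each contain a CpG, and the shares over all windows were not matched for CpG content. The RefSeq start of Dusp10 lies 21079 bases inside the gene as listed in the table, and that of Dusp8 lies 559 bases inside. The windows of Dusp10 and Dusp8 thus belong to downstream starts and do not cover the listed ones. A match is a run of letters and does not show that a factor was bound.

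In control muscle the members spanned a wide range of levels. The authors' FPKM, a value scaled by gene length and library depth, compares levels between genes per length. Dusp1 was the highest at 67.6 ± 27.8 FPKM (SD, n = 3), followed by Dusp10 at 27.2 ± 1.31, Dusp7 at 16.1 ± 0.242, Dusp6 at 15.1 ± 1.26, Dusp8 at 8.73 ± 0.553, Dusp16 at 3.66 ± 0.355 and Dusp4 at 2.44 ± 0.551 FPKM. Dusp2, the phosphatase PAC-1 of immune cells, and Dusp5, an ERK-specific nuclear enzyme, were below 1 FPKM in every library. Dusp9, best known from placenta, had between 0 and 5 counts per library and was the 1 member that did not pass the low-count filter. Neighbours in this order whose library ranges overlapped were Dusp7 with Dusp6 and Dusp2 with Dusp5, and all other neighbours were apart in the 3 control libraries. In Igf2 cKO muscle the order was Dusp1, Dusp7, Dusp10, Dusp8, Dusp6, Dusp16, Dusp4, Dusp5, Dusp2 and Dusp9. There the ranges of Dusp7 and Dusp10, of Dusp10 and Dusp8, of Dusp8 and Dusp6, of Dusp4 and Dusp5, and of Dusp5 and Dusp2 overlapped.

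**Figure D1:**
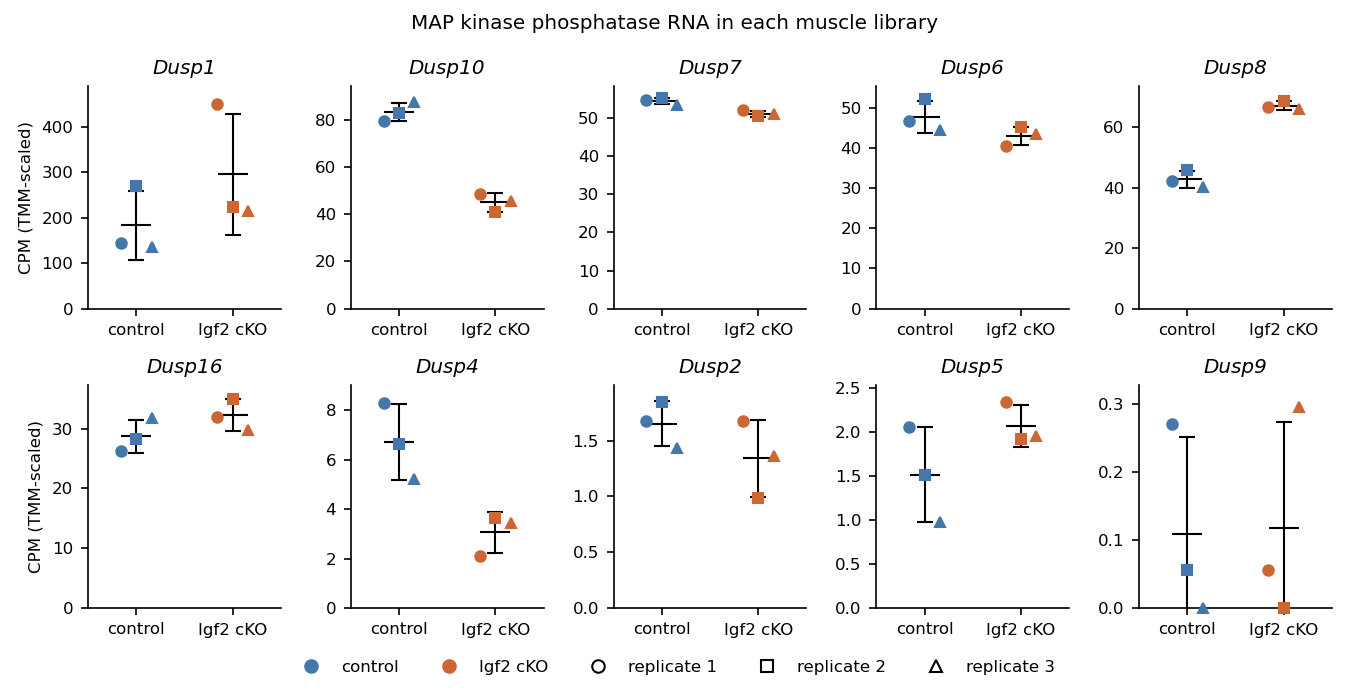
CPM of each of the 10 MAP kinase phosphatases in the 6 libraries, ordered by level per length in control muscle; points are libraries, bars the mean ± SD of 3 libraries, and each axis starts at 0. The groups are apart for Dusp10, Dusp7, Dusp8 and Dusp4, and overlap for the other 6 genes.

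Dusp8 and Dusp10, both phosphatases of JNK and p38, were the pair for which the group was chosen. Dusp8 (ENSMUSG00000037887, chromosome 7, 142079490 to 142095843, minus strand, GRCm38, 7 exons in its principal transcript) had 782, 818 and 617 counts in controls 1, 2 and 3, or 42.3, 45.8 and 40.3 CPM. Igf2 cKO libraries 1, 2 and 3 held 1196, 1111 and 1117 counts, or 66.7, 68.7 and 66.0 CPM. All 3 Igf2 cKO libraries lay above all 3 controls, at a mean 1.57 times that of controls and a log2 fold change of 0.65 ± 0.09 (SE). Dusp10 (ENSMUSG00000039384, chromosome 1, 184013302 to 184075636, plus strand, 4 exons) had 1469, 1481 and 1336 counts in the controls, or 79.5, 82.8 and 87.4 CPM. In Igf2 cKO muscle it had 871, 658 and 772 counts, or 48.6, 40.7 and 45.6 CPM. All 3 Igf2 cKO libraries lay below all 3 controls, at a mean 0.540 times that of controls and a log2 fold change of -0.89 ± 0.10 (SE). The summed fibre markers were also apart between the genotypes, and their part in these differences was not tested. In such tissue RNA, fewer cells of a type and less RNA per cell cannot be told apart. Of genes listed as overlapping them, Gm32786 at the start of Dusp8 had at most 6 counts and 1700056E22Rik, on the strand opposite to Dusp10, between 9 and 35.

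Dusp16 (MKP-7), the third phosphatase of the stress kinases, differed less between the genotypes than Dusp8 and Dusp10. The controls stood at 26.3, 28.2 and 31.7 CPM and the Igf2 cKO libraries at 32.0, 35.0 and 29.8 CPM, so the groups overlapped, with a log2 fold change of 0.17 ± 0.11 (SE). Summed over the trio, the level per length was 37.9, 40.0 and 40.8 FPKM in the controls and 33.5, 31.8 and 32.4 FPKM in Igf2 cKO muscle. Dusp10 made up 67.7% to 69.9% of this sum in the control libraries and 41.8% to 47.3% in the Igf2 cKO libraries. Dusp8 made up 20.2% to 23.3% and 40.6% to 44.1%. The ratio of Dusp10 to Dusp8 in FPKM was 2.90 to 3.47 in the controls and 0.948 to 1.17 in Igf2 cKO muscle. The trio thus had nearly equal Dusp8 and Dusp10 levels in Igf2 cKO muscle, while the control libraries held mostly Dusp10.

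**Figure D2:**
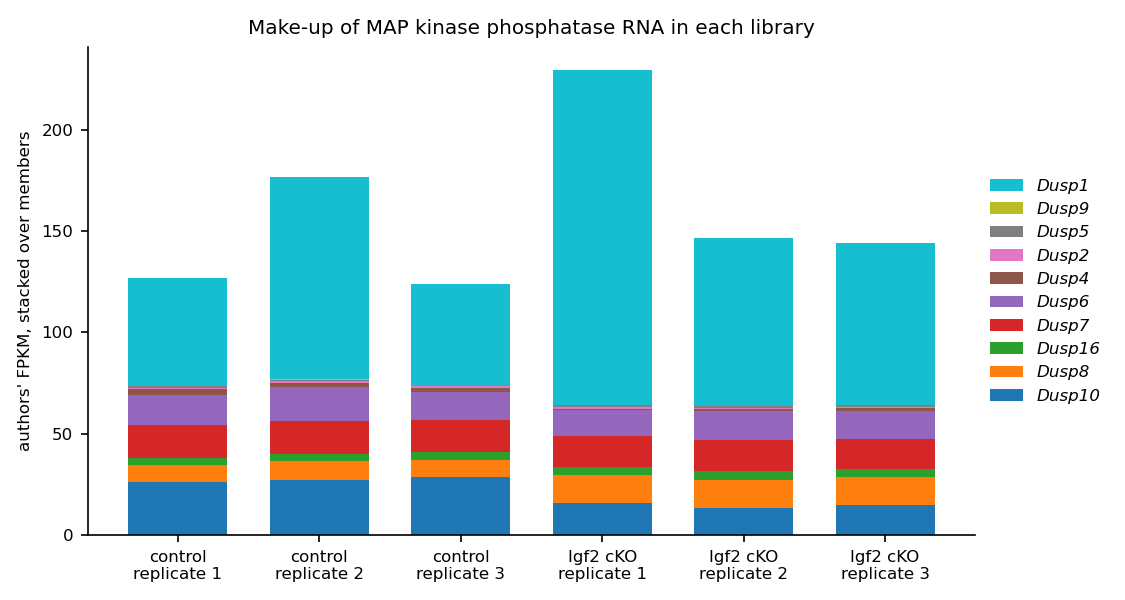
Authors' FPKM of the 10 members stacked for each library, so that the height of a bar is their summed level per length. Without Dusp1 the sums lie between 73.7 and 76.8 FPKM in controls and between 63.7 and 64.3 FPKM in Igf2 cKO muscle, and most of the difference in height between libraries of 1 genotype lies in the Dusp1 layer.

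Among the inducible nuclear members, Dusp4 (MKP-2) was lower and Dusp1 varied by library. Dusp4 (chromosome 8, 34807297 to 34819894, plus strand) had 153, 119 and 80 counts in the controls, or 8.28, 6.66 and 5.23 CPM. In Igf2 cKO muscle it had 38, 59 and 58 counts, or 2.12, 3.65 and 3.43 CPM. All 3 Igf2 cKO libraries lay below all controls, at a log2 fold change of -1.14 ± 0.27 (SE), the largest in size among the tested members and on the lowest counts of the 4 whose groups were apart. Dusp5 had 38, 27 and 15 counts in the controls and 42, 31 and 33 in Igf2 cKO muscle, with overlapping groups and a log2 fold change of 0.44 ± 0.33 (SE). Dusp2 had 31, 33 and 22 counts in the controls and 30, 16 and 23 in Igf2 cKO muscle, also overlapping, with a log2 fold change of -0.30 ± 0.31 (SE).

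Dusp1, which is induced within minutes by stress and growth signals and by glucocorticoids, was at 144.6, 270.8 and 135.6 CPM in controls 1, 2 and 3. Igf2 cKO libraries 1, 2 and 3 stood at 449.7, 224.1 and 214.7 CPM. Control replicate 2 lay above Igf2 cKO replicates 2 and 3, so the groups overlapped. The log2 fold change was 0.69 ± 0.35 (SE), 0.26 when Igf2 cKO replicate 1 was left out and 1.07 when control replicate 2 was. The same 2 libraries held the highest levels of Fos, Egr1 and Jun, 3 immediate early genes named after their values were seen. Fos, a subunit of AP-1, was at 131.5 CPM in control replicate 2 and 137.6 CPM in Igf2 cKO replicate 1, against 11.8 to 28.6 CPM in the other libraries. Egr1, an early zinc finger factor, was at 127.9 and 113.3 CPM in those 2, against at most 36.2 CPM elsewhere. Jun, the partner of Fos and a substrate of JNK, was at 229.4 and 256.3 CPM, against 98.2 to 164.0 CPM. The genotypes overlapped for all 3. Not every early gene shared this order, since Ier3 was at 18.9 CPM in control replicate 2 and at 9.76 CPM, its lowest value, in Igf2 cKO replicate 1. Phlda1, an ERK target, had its second highest value, 10.6 CPM, in Igf2 cKO replicate 2. The part of this library pattern in the Dusp1 difference was not tested.

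**Figure D3:**
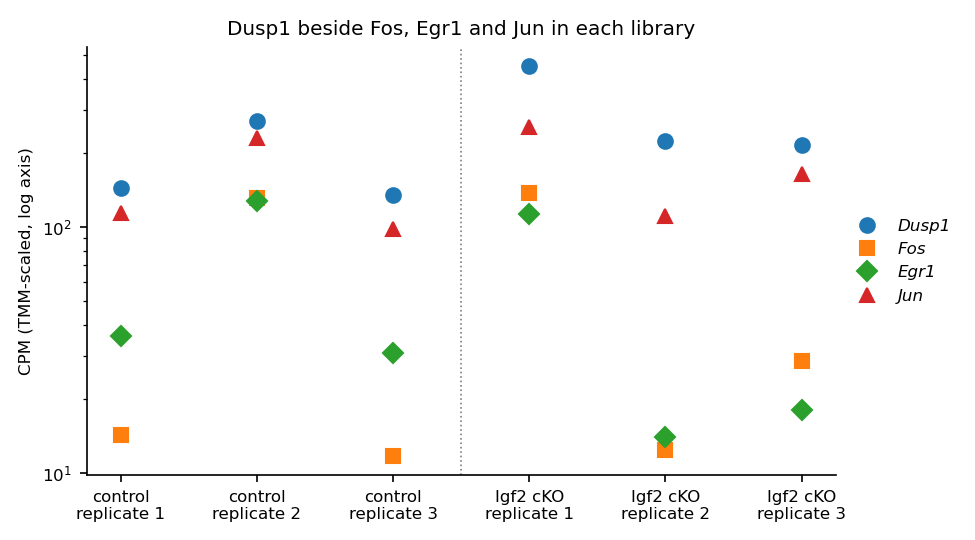
CPM of Dusp1, Fos, Egr1 and Jun in each library on a log axis, controls left of the dotted line and Igf2 cKO right of it. Control replicate 2 and Igf2 cKO replicate 1 hold the 2 highest values of each of the 4 genes.

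The ERK-directed cytoplasmic members had the smallest fold changes of the 9 tested genes. Dusp7 (MKP-X) stood at 54.7, 55.2 and 53.5 CPM among controls against 51.9, 50.4 and 51.0 CPM among Igf2 cKO libraries. The groups were apart, yet the log2 fold change was -0.09 ± 0.08 (SE). Its coefficient of variation within a genotype, 1.58% and 1.49%, was the lowest of the members. Dusp6 (MKP-3), a feedback inhibitor that is transcribed in answer to ERK activity, stood at 46.8, 52.1 and 44.3 CPM among controls against 40.6, 45.0 and 43.3 CPM among Igf2 cKO libraries. The groups overlapped, with a log2 fold change of -0.15 ± 0.10 (SE).

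Over all genes, edgeR called 37 of 14867 tested genes (0.249%) at an adjusted p under 0.05. Of the 9 tested members 2 were called, Dusp8 (0.182% of genes were called higher) and Dusp10 (0.0673% were called lower). Since these genes were picked for this difference, nothing is read from that count. With 1 library left out, Dusp10 alone was called without Igf2 cKO replicate 1, and Dusp8 and Dusp10 without Igf2 cKO replicate 2. Neither was called without Igf2 cKO replicate 3 or any 1 control. The total of called genes was 39, 68 and 17 without Igf2 cKO replicates 1, 2 and 3. It was 8, 15 and 13 without control replicates 1, 2 and 3. DESeq2 called 3 members, the third being Dusp4 (1.57% of genes called), and limma-voom called 2 (0.229%). The genotypes were apart for 4 tested members, as they were for 15.5% of all tested genes, with 1 higher (7.83% of genes) and 3 lower (7.67%). Over the members the median log2 fold change was -0.09, with 4 above 0 and 5 below, beside a median of 0.00 over all tested genes. An absolute log2 fold change at least that of Dusp8 was found for 6.54% of tested genes and at least that of Dusp10 for 2.99%.

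**Figure D4:**
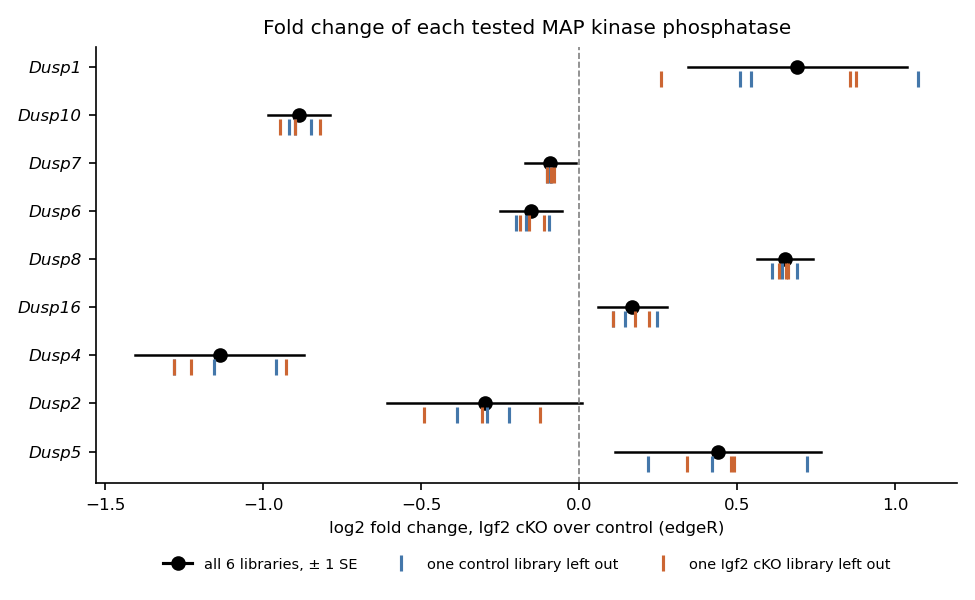
Log2 fold change of the 9 tested members, Igf2 cKO over control, with ± 1 SE as a line; the ticks below each line are the values with 1 library left out, coloured by the genotype of that library. Dusp8 stays between 0.61 and 0.69 and Dusp10 between -0.95 and -0.82, while Dusp1 runs from 0.26 to 1.07.

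The authors' deposited table compares single libraries of the same number. For replicates 1, 2 and 3 the authors' deposited table gives Dusp8 log2 fold changes of 0.66, 0.59 and 0.71, and Dusp10 values of -0.71, -1.02 and -0.93. Dusp4 had -1.96, -0.86 and -0.61 in the authors' deposited table. Dusp1 had 1.64, -0.27 and 0.67 in the authors' deposited table and was the 1 of these 4 genes whose sign differed between comparisons. These are the same 6 libraries.

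The kinases that the phosphatases act on were compared in the same fit over all genes. Their lists were drawn up with earlier results of these data known. Of 9 tested MAP kinases 0 passed edgeR's test, DESeq2's or limma-voom's, and 1 had an unadjusted p under 0.05, where 9.93% of all tested genes did (median log2 fold change 0.06). That 1 was Mapk8 (JNK1), at 34.8, 36.9 and 37.7 CPM among controls and 40.4, 43.4 and 42.3 CPM among Igf2 cKO libraries. All 3 lay above the controls, with a log2 fold change of 0.20 ± 0.09 (SE, edgeR adjusted p = 0.485). The other JNK genes were Mapk9 at 0.06 (adjusted p = 0.904) and Mapk10, with at most 14 counts, at -0.76 (adjusted p = 0.715). Of the p38 genes, Mapk14 was at -0.10 (adjusted p = 0.853), Mapk12, the muscle-enriched p38 gamma, at 0.15 (adjusted p = 0.738) and Mapk11 at 0.46 (adjusted p = 0.527), while Mapk13 was not tested. ERK1 (Mapk3) was at 0.00 (adjusted p = 1.00) and ERK5 (Mapk7) at -0.18 (adjusted p = 0.655), all by edgeR. For Mapk7 all 3 Igf2 cKO libraries lay below the controls. Mapk8 and Mapk7 were the 2 of 9 tested MAP kinases with the genotypes apart, as 15.5% of all tested genes were.

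Levels per length set the targets beside their phosphatases in control muscle. Mapk14 was at 38.9 ± 3.92 FPKM, Mapk12 at 33.3 ± 2.48, Mapk3 at 32.2 ± 3.15, Mapk9 at 8.36 ± 0.155 and Mapk8 at 3.16 ± 0.133 FPKM (SD, n = 3). Mapk7 was at 3.31 FPKM and Mapk11 at 1.61 FPKM. Mapk14, Mapk12 and Mapk3 thus stood above the JNK genes, and Dusp10 (27.2 FPKM) lay between Mapk3 and Mapk9.

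No tested MAP kinase kinase or MAP kinase kinase kinase was called by edgeR after the low-count filter. Of 7 tested MAP kinase kinases, 0 passed in edgeR, DESeq2 and limma-voom alike, and their log2 fold changes had a median of -0.10. In edgeR 2 had an unadjusted p under 0.05, as 9.93% of all tested genes did. The pair was Map2k6, which activates p38, at -0.33 ± 0.10 (SE, edgeR adjusted p = 0.325), and Map2k7, which activates JNK, at -0.26 ± 0.11 (SE, adjusted p = 0.492). In both, all 3 Igf2 cKO libraries lay below the controls, and the genotypes were apart for 15.5% of all tested genes. Map2k3, Map2k4, Map2k1, Map2k2 and Map2k5 lay between -0.13 and 0.07 (edgeR adjusted p between 0.738 and 0.966). Of 16 tested MAP kinase kinase kinases edgeR and limma-voom called 0, DESeq2 called 1, and 1 had an unadjusted p under 0.05 (median 0.02). This was Map3k6 (ASK2), a stress-activated kinase upstream of JNK and p38, at 13.4, 18.9 and 13.3 CPM among controls and 24.4, 28.7 and 26.7 CPM among Igf2 cKO libraries. Its log2 fold change was 0.81 ± 0.15 (SE, edgeR adjusted p = 0.111, DESeq2 adjusted p = 0.00227), and over all alternatives its adjusted p ran from 0.00134 to 0.304. Map3k8 (-0.51, edgeR adjusted p = 0.506) and Map3k3 (-0.18, edgeR adjusted p = 0.537) followed.

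In the list of ERK feedback and target genes other than DUSPs, 0 of 18 tested members passed in edgeR, DESeq2 and limma-voom alike, 5 had an unadjusted p under 0.05, 1 higher and 4 lower, and the median was -0.11. Ier3, an early response gene, was at -0.54 (edgeR adjusted p = 0.284), Spry2, a Sprouty inhibitor of receptor signalling, at -0.43 (adjusted p = 0.344) and Phlda1 at 0.64 (adjusted p = 0.38). Among 16 tested substrates of JNK and p38, the 3 tools called 0, and 5 had an unadjusted p under 0.05, 3 higher and 2 lower, with a median of 0.01. An unadjusted edgeR p under 0.05 was found for 9.93% of all tested genes, and no set test was run on either list. Rps6ka4 (MSK2), a kinase activated by p38 and ERK, was at 0.34 (edgeR adjusted p = 0.312), the transcription factor gene Elk1 at -0.49 (adjusted p = 0.345) and the AP-1 gene Jund at 0.42 (adjusted p = 0.469).

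Of 14 tested atypical dual-specificity phosphatases, which lack the kinase-binding domain of the MAP kinase phosphatases, edgeR and limma-voom called 0 and DESeq2 called 1. Their median was 0.10, and 2 were at an unadjusted edgeR p under 0.05, as were 9.93% of all tested genes. Dusp26, found in brain and muscle, was at 50.0, 58.5 and 59.0 CPM among controls and 35.8, 39.7 and 27.4 CPM among Igf2 cKO libraries. Its log2 fold change was -0.70 ± 0.14 (SE, edgeR adjusted p = 0.148, DESeq2 adjusted p = 0.00424), with an adjusted p from 0.00272 to 0.38 over all alternatives. Dusp13, a phosphatase of testis and skeletal muscle, was at 0.36 ± 0.11 (SE, edgeR adjusted p = 0.327), and Dusp23 at -0.22 (edgeR adjusted p = 0.519). Of 9 tested scaffolds and other phosphatases of MAP kinases the 3 tools called 0, and 1 had an unadjusted p under 0.05 (median 0.05), the p38 phosphatase gene Ppm1d (WIP1) at -0.36 (edgeR adjusted p = 0.427). Ptprr (0.54, edgeR adjusted p = 0.614) and the JNK scaffold gene Mapk8ip1 (0.38, edgeR adjusted p = 0.633) came next.

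**Figure D5:**
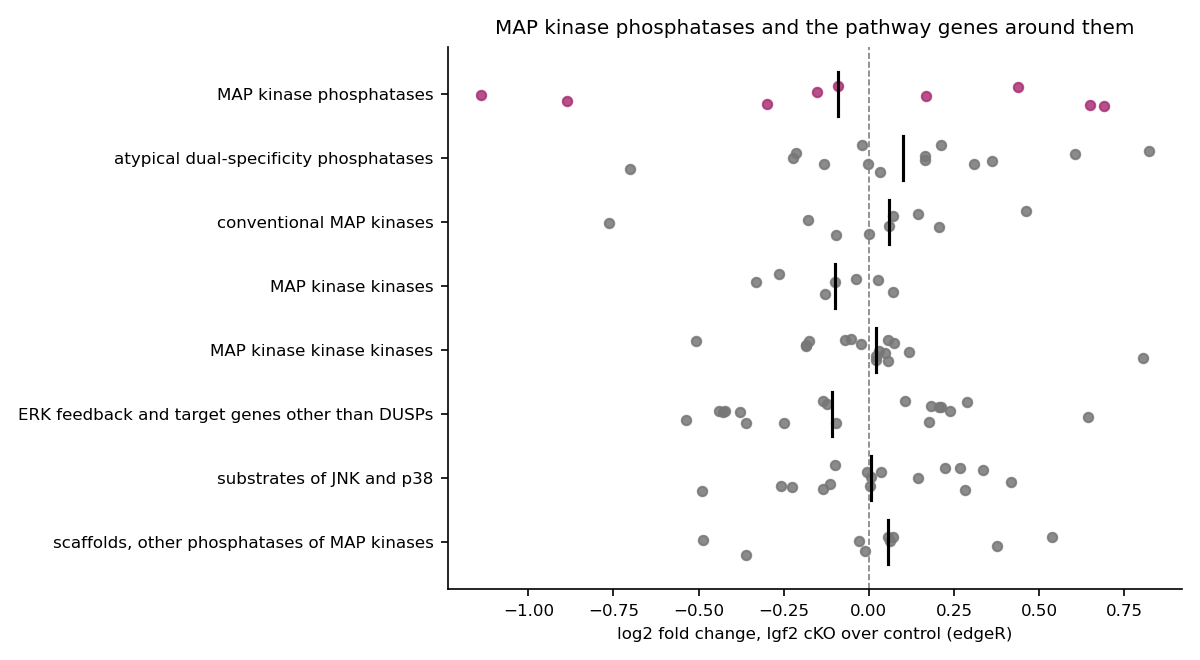
Log2 fold change, Igf2 cKO over control, of every tested MAP kinase phosphatase and of every tested gene in 7 pathway lists; a point is a gene, spread vertically for sight only, and the black bar is the list's median. The list medians lie between -0.11 and 0.10, and the 4 members farthest from 0 are Dusp4, Dusp10, Dusp1 and Dusp8.

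Likeness to Dusp8 and Dusp10 was measured as the root mean square difference of log2 CPM, each gene centred on its own mean, over the 6 libraries and 13776 genes with a mean of at least 1 CPM. Nearest to Dusp8 were Proser2 (0.0724), P4ha1 (0.0769), Tppp3 (0.0821), P4ha2 (0.0829) and Slc4a8 (0.0836). Proser2 had mean levels of only 1.39 CPM in controls and 2.40 CPM with Igf2 cKO, and a log2 fold change of 0.78 ± 0.25 (SE). A prior count of 2 enters the log2 CPM and shrinks the differences of such low genes, so its rank is less firm. P4ha1 and P4ha2, which encode catalytic subunits of collagen prolyl hydroxylase, had mean levels of 58.8 and 28.5 CPM in controls and 86.4 and 40.6 CPM with Igf2 cKO. Nearest to Dusp10 were Ccrl2 (0.0825), Klhl33 (0.0993), Pdp1 (0.106), Hdac9 (0.107) and Wfikkn2 (0.123). Ccrl2 encodes an atypical chemokine receptor, Hdac9 a class IIa histone deacetylase, Pdp1 a phosphatase that activates pyruvate dehydrogenase, and Wfikkn2 a secreted inhibitor of myostatin. Because the genotype gap of the chosen pair enters this measure, the likeness is a description of 6 libraries.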

How the data were processed

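Per the labels, RNA was isolated with Trizol and sequenced by a commercial service on an Illumina instrument. An aligner, counter, strand setting or build was not given in the sources used here. Listed coordinates match GENCODE M21 (GRCm38) for 9 of the 10 members. Each gene's row of the deposited table has, per the file headers, 1 raw count and 1 FPKM for each library. It also has the authors' log2 fold change, p-value and adjusted p-value for 3 comparisons of single libraries. Another 6 columns of per-sample values were not used.

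The test was edgeR 4.0.16's quasi-likelihood F test on counts (R 4.3.3; genotype as the single term, TMM factors, filterByExpr, Benjamini-Hochberg over 14867 genes, called at an adjusted p under 0.05). SE is derived from the F statistic. CPM are counts divided by the TMM-scaled library size. Replicates are separate libraries by title, and that they came from separate animals is not stated for each. The p-values therefore set the genotype difference against the variation between these libraries, which may not be that between animals.

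Members and gene lists were chosen with earlier results of these data known. Named genes are all members, the MAP kinases and their kinases, the called genes or 3 smallest p of each other list, and the 5 nearest in pattern to Dusp8 and to Dusp10. A gene of the MAP kinase list is not reported here. Fos, Egr1 and Jun were named after their values were seen. Alternatives were DESeq2 1.42.0, limma-voom (limma 3.58.1), other size factors, filters and thresholds, the replicate number as a block and each library left out. Libraries of a group differed by far more than sampling noise, so none was counted as a repeat.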

Additional observations from a re-analysis of the deposited data

How the results depend on the processing

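The fold changes of the 9 tested members kept their direction in all 14 refits, which reuse the same libraries. Each moved by less than the spread between replicates. Leaving out 1 of 3 libraries can hardly move a group mean further than that, so this is no separate check. The members' order of level per length in controls changed rank for 0 members when CPM per kilobase replaced FPKM. The count of 37 called genes became 282 with no low-count filter, 220 with DESeq2, 62 at an adjusted p under 0.1 and 235 by the rule of the series (unadjusted p under 0.05, absolute log2 fold change over 1). It ran from 8 to 68 with 1 library left out (8, 15 and 13 without control replicates 1, 2 and 3, 68 and 17 without Igf2 cKO replicates 2 and 3). With no filter or DESeq2, 1 atypical dual-specificity phosphatase (Dusp26) and 1 MAP kinase kinase kinase (Map3k6) were called, and all 7 lists had 0 calls with any 1 library left out. The cause of these shifts was not tested.

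Whether replicate numbers pair the libraries is not settled by these values. Same-numbered libraries correlated weakly, at 0.163, 0.0581 and -0.0425, in their deviations from the group means. Control replicates 1 and 2 correlated best with the Igf2 cKO library of their own number, and control replicate 3 with another number. With the replicate number as a block, 35 genes were called, Dusp10 among them and Dusp8 not. The depth limits Dusp2, Dusp5 and Dusp9, at no more than 42 counts in a library.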

Other observations

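Dusp8 lies on the same stretch of chromosome 7 as the targeted gene. The higher listed coordinate of Dusp8, 142095843, and the lower one of Igf2, 142650766 (GRCm38), are 555 kb apart, and both genes lie on the minus strand. This interval was looked at after the values of Dusp8 had been seen. The table lists 42 genes from Dusp8 to Igf2, many of them keratin-associated and predicted genes without counts, and 11 were tested. Beside Dusp8 these include the cathepsin D gene Ctsd, the fast troponin genes Tnni2 and Tnnt3, the mitochondrial ribosomal protein gene Mrpl23 and the noncoding RNAs Nctc1 and H19. Of the 10 tested genes other than Dusp8, edgeR, DESeq2 and limma-voom called 0, and 1 was at an unadjusted p under 0.05. It was Nctc1, a noncoding RNA between Mrpl23 and H19, at 80.3, 65.1 and 85.7 CPM among controls and 137.9, 79.8 and 112.3 CPM among Igf2 cKO libraries (log2 fold change 0.51 ± 0.19 SE, edgeR adjusted p = 0.426). The 10 log2 fold changes lay between -0.31 (Igf2) and 0.51 (Nctc1). Both groups carry the floxed Igf2 alleles, and only the Igf2 cKO group carries the Cre. The part of the nearby locus in the Dusp8 difference was not tested.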
